A study of Mus musculus with 300 samples.

Results

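The 42 sarcomere and fibre-type genes are the contractile, calcium-handling and energy-buffering genes by which cardiac, slow and fast muscle differ: myosin heavy and light chains, troponins, tropomyosins, actins and actinins, calcium pumps, release channels and buffers, and the cardiac peptides Nppa and Nppb. They were taken by name, and the probe set with the highest mean signal over all 300 arrays of the series stood for each gene. Of the 42 genes, 17 had several probe sets, and the one used need not be the highest in heart or skeletal muscle. All 42 were measured, among 18193 genes in all. Mice were given GW501516 (an agonist of PPAR-delta), WY14643 (an agonist of PPAR-alpha, written WY16453 in the series' design text) or rosiglitazone (an agonist of PPAR-gamma) by mouth at 10 mg/kg, or vehicle, and tissues were profiled on Affymetrix arrays on days 4, 8 and 15. In heart and in skeletal muscle each compound had 5 arrays per day and vehicle had 10, which gave 15 arrays of a compound against 30 of vehicle in each tissue, from the same 75 mice. The 3 compounds share their vehicle arrays, so their differences from vehicle are not independent of each other. The labels name no strain, sex or age, no muscle and no part of the heart, and p-values measure the spread between these mice.

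In a sarcomere, myosin heads on the thick filament pull on actin once calcium binds troponin C and the troponin complex shifts tropomyosin aside. Fibres build this machine from alternative isoforms: slow fibres carry Myh7, Myl2, Myl3, Tnnc1, Tnni1 and Tnnt1, and fast fibres carry Myh2, Myh1 or Myh4 with Myl1, Tnnc2, Tnni2 and Tnnt3. The mouse ventricle runs on Myh6 with Tnnc1, Myl2 and Myl3, and the atria use Myl7 and Myl4 as light chains. PPAR-delta is known in muscle for fatty acid oxidation and for the slow, oxidative fibre programme, which makes slow against fast isoforms under GW501516 the comparison of main interest.

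Promoters are shown for 5 slow genes whose levels varied together across skeletal muscle arrays, for the fast gene Myh4, whose level varied little, and for the atrial gene Myl7, which varied most in heart. Each line gives the 250 bases before a RefSeq transcription start (GRCm38.p6), 5′ to 3′ on the gene's strand. Capitals mark TATAAA, the M-CAT motif CATTCC (bound by TEAD factors), the MEF2 site and the CArG box (bound by serum response factor), found on either strand; where a gene has several starts, one with a match is shown, otherwise the first.
Myh7, chr14:54994627-54994876, minus strand: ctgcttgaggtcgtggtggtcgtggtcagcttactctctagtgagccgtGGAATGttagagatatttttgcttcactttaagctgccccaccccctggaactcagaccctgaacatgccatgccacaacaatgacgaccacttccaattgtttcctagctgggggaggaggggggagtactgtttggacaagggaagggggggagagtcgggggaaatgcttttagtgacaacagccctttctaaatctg
Tnnc1, chr14:31208062-31208311, plus strand: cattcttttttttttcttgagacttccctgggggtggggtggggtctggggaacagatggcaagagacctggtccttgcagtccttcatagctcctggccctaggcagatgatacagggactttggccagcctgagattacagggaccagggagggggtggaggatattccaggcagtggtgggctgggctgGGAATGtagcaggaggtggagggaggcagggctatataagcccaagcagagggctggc
Tnni1, chr1:135799171-135799420, plus strand: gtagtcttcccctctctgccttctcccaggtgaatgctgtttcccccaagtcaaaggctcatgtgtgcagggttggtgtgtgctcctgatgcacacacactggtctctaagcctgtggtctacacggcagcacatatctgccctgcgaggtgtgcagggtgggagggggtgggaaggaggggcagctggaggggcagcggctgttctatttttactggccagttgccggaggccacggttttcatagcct
Tnnt1, chr7:4515976-4516225, minus strand: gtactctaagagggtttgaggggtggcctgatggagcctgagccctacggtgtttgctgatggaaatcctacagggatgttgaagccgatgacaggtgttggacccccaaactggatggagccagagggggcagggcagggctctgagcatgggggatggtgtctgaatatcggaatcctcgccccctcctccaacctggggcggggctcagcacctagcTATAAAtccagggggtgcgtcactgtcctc
Myl3, chr9:110763428-110763677, plus strand: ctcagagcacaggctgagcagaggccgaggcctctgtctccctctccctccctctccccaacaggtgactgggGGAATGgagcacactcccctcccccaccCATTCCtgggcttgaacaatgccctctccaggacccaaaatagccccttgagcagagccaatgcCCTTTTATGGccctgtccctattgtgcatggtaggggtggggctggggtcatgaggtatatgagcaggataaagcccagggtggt
Myh4, chr11:67237562-67237811, plus strand: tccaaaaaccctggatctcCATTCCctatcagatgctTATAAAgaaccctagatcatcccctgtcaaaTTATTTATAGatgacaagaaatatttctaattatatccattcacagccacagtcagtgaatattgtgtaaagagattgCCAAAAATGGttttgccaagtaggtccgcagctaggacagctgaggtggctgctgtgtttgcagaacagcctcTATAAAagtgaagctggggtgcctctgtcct
Myl7, chr11:5898783-5899032, minus strand: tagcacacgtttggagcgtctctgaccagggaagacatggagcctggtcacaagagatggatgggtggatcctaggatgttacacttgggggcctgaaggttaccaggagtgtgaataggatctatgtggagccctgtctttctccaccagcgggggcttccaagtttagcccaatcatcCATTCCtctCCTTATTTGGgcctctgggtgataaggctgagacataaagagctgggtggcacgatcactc
Of the 42 genes, 38 had a promoter in the table, with 46 starts. CATTCC was in 13 of 38 members (34.2%) and 14.4% of all 27025 genes. The MEF2 site was in 6 of 38 members (15.8%) and 3.42% of all 27025 genes, and it can overlap TATAAA. The CArG box was in 5 of 38 members (13.2%) and 1.62% of all 27025 genes, and TATAAA in 9 of 38 members (23.7%) and 14.3% of all 27025 genes. The E-box CANNTG, not capitalised here, was in 33 of 38 members (86.8%) and 69.3% of all 27025 genes. The Tnni1 window held none of the capitalised motifs, whereas that of Myh4 held all 4. DR1, the response element of PPAR, was in 0 of the 38 members and in 11 of all genes, so that an exact match was rare everywhere. These are letter matches only.

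Isoforms typical of a tissue stood high on its arrays, but so did some that are counted to the other tissue. In heart, ventricular genes stood near the top of the scale, with vehicle medians (log2 array level) of 14.85 for Tnnc1, 14.78 for cardiac actin, Actc1, 14.74 for Myl2, 14.68 for cardiac troponin I, Tnni3, and 14.67 for Myh6. The highest value on any heart array was 14.94 to 15.03, and the residual SD between arrays was 0.025 for Tnnc1 and 0.038 for Myh6; whether changes were compressed so near the ceiling was not tested. In skeletal muscle the fast genes stood at the top, with medians of 13.88 for Tnni2, 13.78 for Tnnc2, 13.55 for Tnnt3 and 13.53 for the calcium buffer parvalbumin, Pvalb. The cardiac genes Myh6, Nppa, Nppb, Myl7, Tnni3 and Mybpc3 had medians between 3.05 and 4.40 there. Ryr2 had 4.22 (range 2.35 to 7.37) and Tnnt2 had 5.45. Cardiac actin, Actc1, stood high in skeletal muscle too, at 12.14. In heart, genes counted here as fast were not all low, with vehicle medians of 13.12 for Myl1, 10.66 for Mybpc2 and 9.83 for Casq1. Array medians of 7.27 to 7.44 in heart and 4.98 to 5.13 in skeletal muscle show that the tissues were scaled apart, so levels are not compared between them.

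Averaged over the 3 days, no compound changed a member past the test in either tissue. With limma and Benjamini-Hochberg adjustment over all genes, 0 of 42 members had an adjusted p under 0.05 in heart under GW501516, WY14643 and rosiglitazone, where 4.17%, 1.44% and 7.51% of all genes did. In skeletal muscle 0 of 42 passed under each compound, where 0.857%, 0.104% and 1.65% of all genes did, shares so low that few or no calls among 42 genes is near the background. At an unadjusted p under 0.05 there were 1, 7 and 2 members in heart, beside 14.7%, 13.6% and 20.5% of all genes. In skeletal muscle there were 0, 2 and 1, beside 8.92%, 11.5% and 11.5% of all genes. The median log2 change of the members was -0.0051, -0.0099 and -0.011 in heart (all genes -0.0094, 0.0061 and -0.020) and 0.0077, -0.028 and -0.033 in skeletal muscle (all genes -0.00067, -0.014 and 0.00076), in the same order of compounds.

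**Figure D1:**
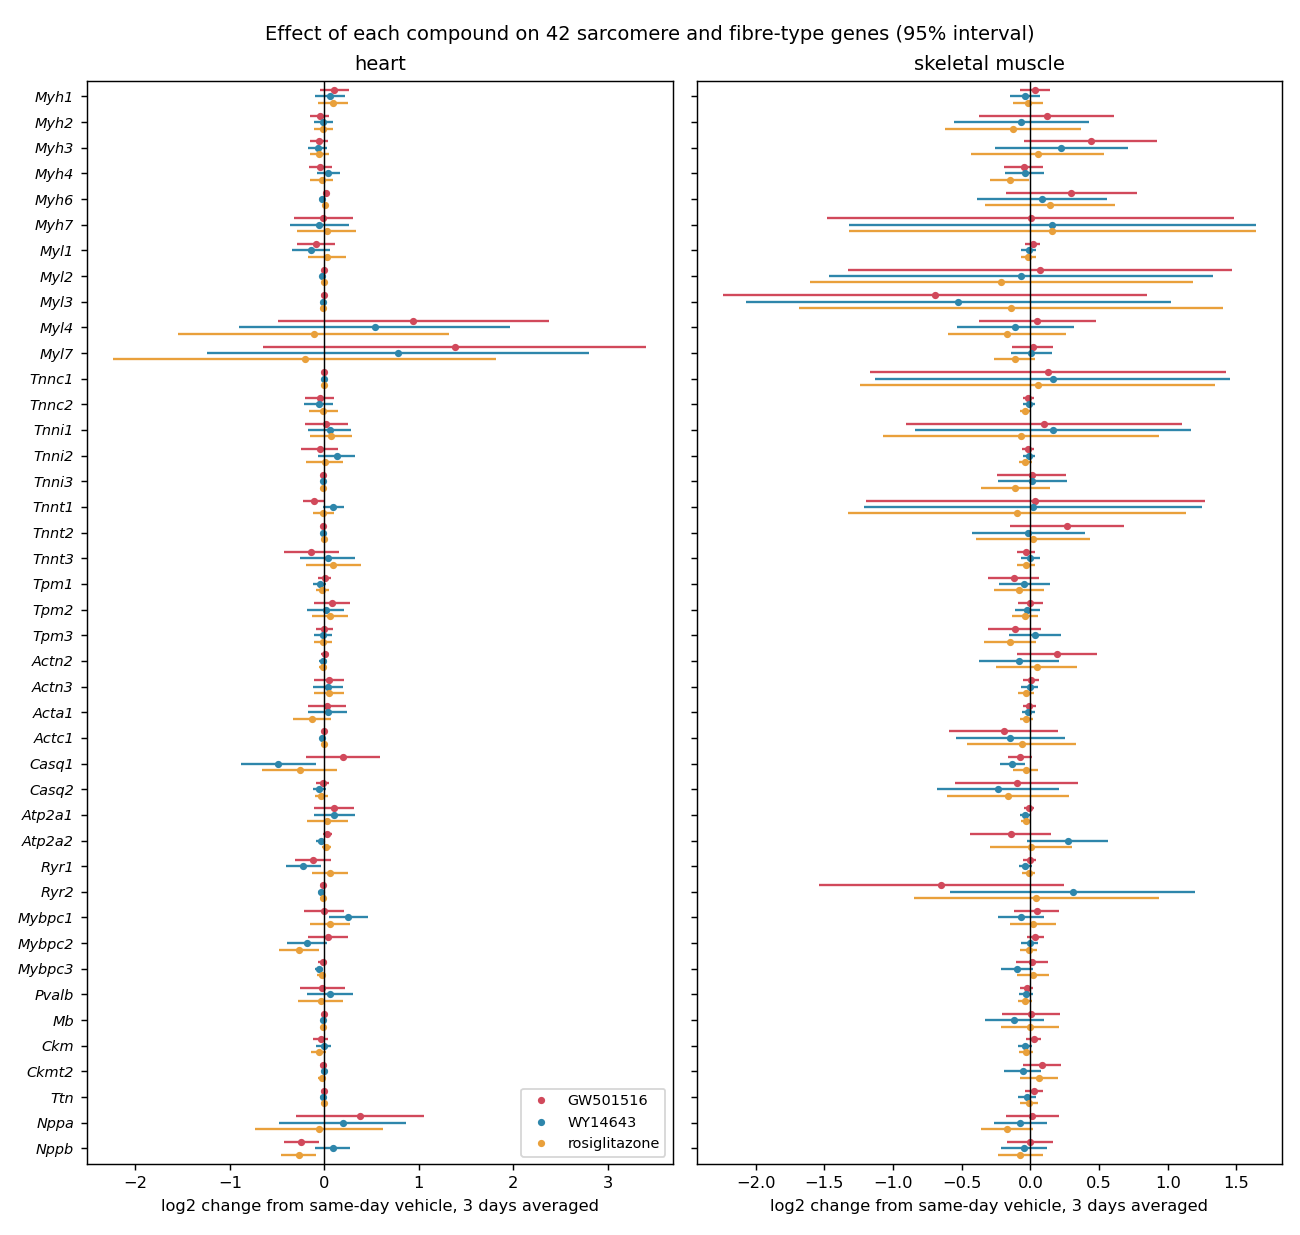
Day-averaged log2 change of each of the 42 genes (rows) from same-day vehicle in heart (left) and skeletal muscle (right); points are limma estimates and bars 95% intervals, from 15 treated and 30 vehicle arrays, coloured by compound. Intervals are narrow for ventricular genes in heart and fast genes in skeletal muscle, and wide for Myl7 and Myl4 in heart and for slow genes such as Myh7 and Myl3 in skeletal muscle.

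GW501516 raised known PPAR target genes in both tissues. In skeletal muscle Ucp3, a mitochondrial carrier induced by fatty acids, rose by 0.95 ± 0.12 (log2, SE; adjusted p = 2.28e-07 by limma), and Cpt1a, which admits fatty acids to mitochondria, rose by 0.81 ± 0.12 (adjusted p = 4.08e-06). In heart Cpt1a rose by 0.49 ± 0.054 and Ucp3 rose by 0.52 ± 0.14 (adjusted p = 9.41e-10 and 0.0127). Angptl4, another PPAR target, rose by 1.90 ± 0.20 in heart (adjusted p = 6.21e-10) and had 0.61 ± 0.35 in skeletal muscle (adjusted p = 0.665). These genes were chosen after their values were seen.

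The width of the intervals differed between gene groups. In heart the 95% interval (per gene, not adjusted) lay inside a 1.5-fold change either way for 38 of 42 members under each compound. In skeletal muscle this held for 30 members under GW501516, 33 under WY14643 and 31 under rosiglitazone. Fast and slow genes parted here: under GW501516 it held for 11 of 12 fast genes and 3 of 9 slow genes. The median SE was 0.030 for the fast genes and 0.62 for the slow genes (log2). The fast genes with the highest signal stood close to the array maximum of 14.09 to 14.69 in skeletal muscle, as the ventricular genes did in heart, and whether their changes were compressed there was not tested.

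Most slow genes spanned wide ranges among untreated animals. Over the 30 vehicle arrays of skeletal muscle, the slow heavy chain Myh7 ran from 4.19 through 7.57 to 11.46 (lowest, median and highest log2 level), a 155-fold span. Slow troponin C, Tnnc1, ran from 5.41 through 9.18 to 12.25, and the slow light chain Myl3 from 4.71 through 10.36 to 11.83. Of the 9 slow genes, 6 (the heavy chain, both light chains and the troponins) spanned 39.3 to 211-fold, whereas Tpm3, Atp2a2 and Casq2 spanned 2.26 to 6.32-fold. Of the 12 fast genes, 11 spanned 1.17 to 1.64-fold and Myh2 10.6-fold. Among the fast partners, Myh4 ran from 12.59 through 12.81 to 13.00, Tnnc2 from 13.70 through 13.78 to 14.06, and Myl1 from 13.31 through 13.43 to 13.60. In these bulk samples fewer slow fibres and less slow-gene RNA per fibre cannot be told apart.

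**Figure D2:**
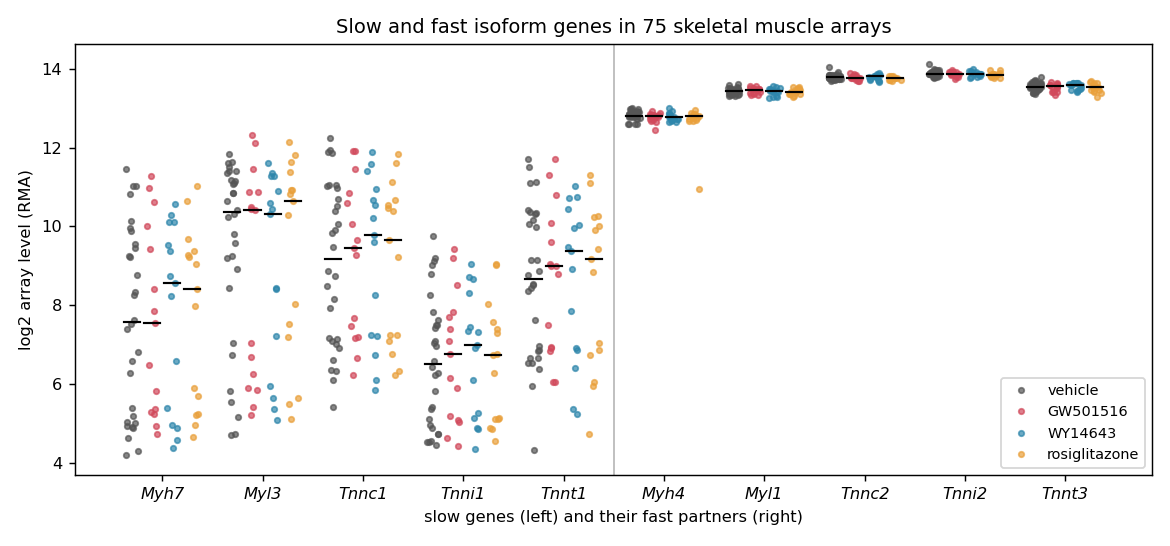
Log2 level of 5 slow genes (left of the line) and their fast partners (right) on the 75 skeletal muscle arrays, one point per mouse, coloured by treatment with all days together; black bars are medians. Within vehicle alone Myh7 covers 4.19 to 11.46 and each compound's slow-gene points spread widely too, while fast genes form tight bands, with 1 rosiglitazone array low for Myh4 (10.95).

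Under GW501516 no slow or fast gene passed the test in skeletal muscle, and a shift between isoforms was not itself tested. The GW501516 arrays of Myh7 were at 5.29, 10.00, 8.42, 4.73 and 6.47 on day 4, at 5.23, 9.42, 5.37, 7.55 and 10.98 on day 8, and at 5.82, 10.62, 7.86, 4.92 and 11.27 on day 15. High and low arrays stood side by side on each day, and 1 of the 15 lay outside the same day's vehicle range, above it on day 8. The day-averaged change was 0.0045 ± 0.74 (95% interval -1.48 to 1.49; adjusted p = 0.999 by limma), an interval that leaves room for changes well over 2-fold either way. For its fast partner Myh4 the arrays were at 12.85, 12.81, 12.66, 12.70 and 12.94 on day 4, at 12.89, 12.82, 12.67, 12.73 and 12.83 on day 8, and at 12.45, 12.82, 12.79, 12.79 and 12.79 on day 15. The first of day 15 lay below all vehicle arrays of that day and the others within their range. The change of Myh4 was -0.049 ± 0.072 (95% interval -0.19 to 0.094; adjusted p = 0.918 by limma).

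The other pairs under GW501516 in skeletal muscle are given as log2 changes with SE. In the troponin complex, the calcium sensors Tnnc1 (slow) and Tnnc2 (fast) had 0.13 ± 0.65 and -0.014 ± 0.021. The inhibitory subunits Tnni1 and Tnni2 had 0.099 ± 0.50 and -0.018 ± 0.023, and the tropomyosin-binding subunits Tnnt1 and Tnnt3 had 0.037 ± 0.62 and -0.031 ± 0.034. In each troponin pair the slow gene's estimate was uncertain by far more than the fast gene's. The light chains Myl3 and Myl1 had -0.69 ± 0.77 and 0.017 ± 0.027, and the tropomyosins Tpm3 and Tpm1 had -0.11 ± 0.096 and -0.12 ± 0.092. For calcium storage and uptake, Casq2 and Casq1 had -0.10 ± 0.22 and -0.075 ± 0.045, and the pumps Atp2a2 and Atp2a1 had -0.14 ± 0.15 and -0.010 ± 0.018. The Z-disc cross-linkers Actn2 and Actn3 had 0.19 ± 0.15 and 0.0032 ± 0.029, and the myosin-binding proteins Mybpc1 and Mybpc2 had 0.045 ± 0.083 and 0.035 ± 0.031. The lowest adjusted p among all 42 members in this comparison was 0.643, for the embryonic heavy chain Myh3.

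The slow gene's estimate exceeded that of its fast partner in 7 of 10 pairs under GW501516 in skeletal muscle, in 6 under WY14643 and in 5 under rosiglitazone. In heart it did so in 5, 6 and 6 pairs. Actn2 and Mybpc1, taken as slow in these pairs, are not among the 9 slow genes, nor is Tpm1 among the 12 fast genes. Slow genes varied together from mouse to mouse in skeletal muscle, so the pairs there are not independent. As a description with no test, the mean log2 level of the 9 slow genes in skeletal muscle had a median of 8.80 (range 6.05 to 10.80) in vehicle, 8.92 (range 6.38 to 10.74) under GW501516, 9.34 (range 6.59 to 10.34) under WY14643 and 9.22 (range 6.03 to 10.71) under rosiglitazone, ranges that largely coincide. The mean of the 12 fast genes had a median of 13.29 (range 13.09 to 13.46) in vehicle, 13.31 (range 13.15 to 13.34) under GW501516, 13.26 (range 13.10 to 13.36) under WY14643 and 13.26 (range 12.91 to 13.35) under rosiglitazone. Under rosiglitazone all 12 fast genes had negative estimates (-0.15 to -0.014), none of which passed the test, and so did 11 of 12 under WY14643 (-0.13 to 0.00077, none past the test) and 7 of 12 under GW501516. These genes share arrays, so their signs are not independent. The fast mean under rosiglitazone was 13.28, 13.29 and 13.15 on days 4, 8 and 15, beside 13.27, 13.31 and 13.28 in vehicle. It was thus lower mainly on day 15, where replicates 4 (12.91) and 1 (13.10) were lowest. Of all 42 members, 30 were negative under rosiglitazone, 30 under WY14643 and 18 under GW501516. The median change over all genes was 0.00076, -0.014 and -0.00067 in this order.

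The slow genes varied together from mouse to mouse. Over the 30 vehicle arrays of skeletal muscle, Myh7 correlated with Tnni1 (r = 0.98, rho = 0.96), Tnnc1 (r = 0.97, rho = 0.96), Tnnt1 (r = 0.96, rho = 0.94), Myl2 (r = 0.88, rho = 0.91) and Myl3 (r = 0.77, rho = 0.78). Each had a permutation p of 1e-05, the smallest that 100000 permutations can give, and 9.78e-05 after Benjamini-Hochberg adjustment over the 88 relations computed. Without the 2 arrays farthest from the Myh7 median, r was 0.97, 0.97, 0.95, 0.87 and 0.77 in the same order. Within days 4, 8 and 15 (10 arrays each), r with Tnnc1 was 0.94, 0.99 and 0.99, and r with Myl3 was 0.93, 0.49 and 0.84. Split at the largest step in Myh7 over all 75 arrays (0.58), r with Tnnc1 was 0.70 among the 32 arrays below and 0.94 among the 43 above, and r with Myl3 was 0.41 and 0.78.

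Other members followed this axis less closely. The slow-type calsequestrin Casq2 (r = 0.61, rho = 0.58), Actn2 (r = 0.63, rho = 0.67), the oxygen store myoglobin, Mb (r = 0.52, rho = 0.53), and the fast oxidative heavy chain Myh2 (r = 0.51, rho = 0.51) were higher where Myh7 was higher, with adjusted permutation p of 0.00277, 0.00125, 0.00964 and 0.00782. Fast Myh4 (r = -0.54, rho = -0.52) and Actn3 (r = -0.54, rho = -0.50) were lower, each with an adjusted permutation p of 0.00964. Without the 2 farthest arrays, r was 0.61, 0.60, 0.50, 0.48, -0.41 and -0.44 in this order. Within days 4, 8 and 15, r was uneven, at 0.91, 0.18 and 0.61 for Casq2, 0.74, 0.27 and 0.38 for Mb and -0.68, -0.42 and -0.51 for Myh4. Also higher with Myh7 were Myh6 (r = 0.68, rho = 0.66), Mybpc1 (r = 0.55, rho = 0.54), Tnni3 (r = 0.53, rho = 0.51), Tnnt2 (r = 0.52, rho = 0.56) and Myh3 (r = 0.50, rho = 0.47). Their adjusted permutation p were 3.52e-04, 0.00782, 0.0109, 0.0142 and 0.0157 in this order. Of these, Myh6 and Tnni3 lay low on the arrays, with vehicle medians of 4.11 and 3.84. Within days 4, 8 and 15, r was 0.84, 0.48 and 0.69 for Myh6 and 0.85, 0.12 and 0.52 for Mybpc1. For Tnnt2 it was 0.57, 0.23 and 0.62, and for Myh3 0.59, 0.40 and 0.47. For Tnni3 it was 0.85, -0.44 and 0.77, so the sign turned on day 8. Over all 75 arrays, deviations of Tnni3 and Myh7 from their group means had an r of 0.16.

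**Figure D3:**
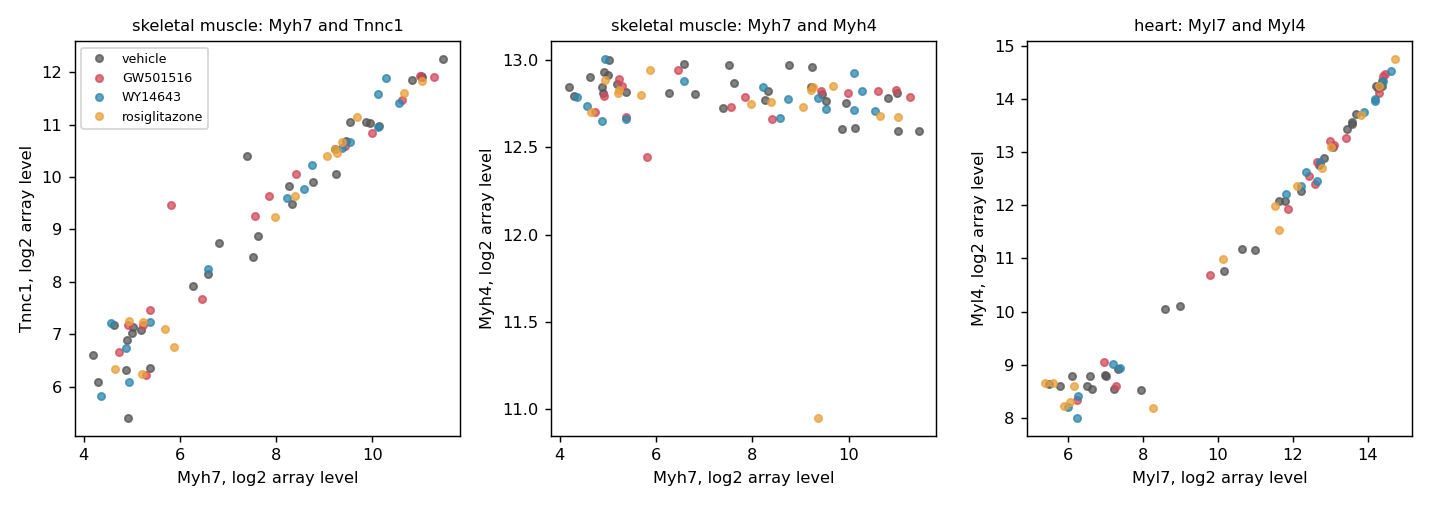
Pairs of log2 levels, one point per array, coloured by treatment: Myh7 with Tnnc1 (left) and with Myh4 (middle) on 75 skeletal muscle arrays, and Myl7 with Myl4 (right) on 75 heart arrays. Tnnc1 climbs with Myh7 and Myl4 with Myl7, while Myh4 stays in a narrow band apart from 1 rosiglitazone array at 10.95, and the treatments are mixed along each axis.

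In heart the widest spread was in the atrial light chains. Over vehicle arrays Myl7 ran from 5.50 through 10.81 to 14.37 and Myl4 from 8.53 through 11.17 to 14.33. Myl7 correlated with Myl4 (r = 0.99, rho = 0.95) and with the atrial marker genes Sln (r = 0.96, rho = 0.95), Dkk3 (r = 0.86, rho = 0.94) and Stard10 (r = 0.72, rho = 0.78), each with an adjusted permutation p of 9.78e-05 over 30 arrays. Of the other 3 atrial markers measured, Kcnj3 followed Myl7 less closely (r = 0.61, rho = 0.61; adjusted permutation p = 0.00223), and Kcnj5 (r = 0.34, rho = 0.33; 0.152) and Bmp10 (r = -0.072, rho = 0.030; 0.780) did not pass the permutation test. Without the 2 farthest arrays r was 0.99 for Myl4, 0.97 for Sln, 0.86 for Dkk3, 0.71 for Stard10 and 0.59 for Kcnj3. Within days 4, 8 and 15, r with Myl4 was 0.99, 0.99 and 0.98. Split at the largest step in Myl7 over all 75 arrays, r with Myl4 was 0.61 among the 27 arrays below and 0.99 among the 48 above. For Sln it was 0.31 below and 0.97 above, and for Dkk3 0.27 and 0.84, so that the relations were closer among the arrays with more Myl7. Slow troponin I, Tnni1, was higher where Myl7 was higher (r = 0.59, rho = 0.67, adjusted permutation p = 0.00125). Mb was lower where Myl7 was higher (r = -0.56, rho = -0.63; adjusted permutation p = 0.00782; within days -0.14, -0.91 and -0.65; -0.54 without the 2 farthest arrays).

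The compounds' effects on the atrial genes were loosely estimated. Under GW501516 Myl7 had 1.38 ± 1.02 and Myl4 0.94 ± 0.72 (adjusted p = 0.594 and 0.612 by limma). The mean of the atrial markers (6 of 7 measured, 0 called under any compound) ran from 7.98 through 8.76 to 10.66 in vehicle, from 8.08 through 9.30 to 10.97 under GW501516, from 7.92 through 9.04 to 11.28 under WY14643 and from 7.99 through 8.87 to 11.87 under rosiglitazone. Their part in these estimates was not tested.

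Genes that the stressed ventricle switches on showed no change past the test. Atrial natriuretic peptide, Nppa, ran from 9.72 through 13.49 to 14.45 in vehicle heart and had changes of 0.38 ± 0.34, 0.19 ± 0.34 and -0.059 ± 0.34 under GW501516, WY14643 and rosiglitazone. Myh7, which rises with load in the adult mouse heart, ran from 10.77 through 11.80 to 12.59 and had -0.013 ± 0.16, -0.055 ± 0.16 and 0.025 ± 0.16. Skeletal actin, Acta1, had 0.026 ± 0.10, 0.035 ± 0.10 and -0.13 ± 0.10. The adjusted p of these genes by limma lay between 0.499 and 0.985. Over vehicle hearts Nppa tended to be higher where atrial Myl7 was higher (r = 0.41, adjusted permutation p = 0.0661, and rho = 0.495, adjusted permutation p = 0.0221). So did Myh7 (r = 0.40, adjusted permutation p = 0.0817, and rho = 0.45, adjusted permutation p = 0.0435), but not Acta1 (r = -0.26, adjusted permutation p = 0.277). The part of atrial tissue in these values was not tested.

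B-type natriuretic peptide, Nppb, secreted by stretched ventricle, had the lowest adjusted p of the 42 genes in heart under GW501516 and under rosiglitazone. On day 4 vehicle ran from 11.96 through 12.94 to 13.11, with GW501516 at 12.60, 12.91, 12.56, 12.49 and 12.86 and rosiglitazone at 13.20, 13.01, 12.30, 12.93 and 12.49. On day 8 vehicle ran from 12.70 through 13.02 to 13.46, with GW501516 at 12.92, 12.94, 12.45, 12.41 and 12.85 and rosiglitazone at 12.71, 12.31, 12.80, 12.18 and 12.88. On day 15 vehicle ran from 12.23 through 13.17 to 13.45, with GW501516 at 12.94, 12.69, 12.76, 12.56 and 12.86 and rosiglitazone at 12.67, 12.96, 12.47, 12.65 and 12.82. On days 8 and 15 all 5 arrays of each compound lay below the vehicle mean, yet the groups overlapped on each day. Averaged over days Nppb had -0.27 ± 0.092 under rosiglitazone (adjusted p = 0.0561 by limma; 12 of 15 arrays below the same-day vehicle mean) and -0.24 ± 0.092 under GW501516 (adjusted p = 0.138; 13 of 15 below), neither past the threshold. Without day 4 the values were -0.42 (adjusted p = 0.00283) and -0.33 (adjusted p = 0.0364), both past it. With the replicate number as a block the rosiglitazone value was -0.34 (adjusted p = 0.0196 by limma). The block fit leaves out vehicle arrays whose number no compound array of that day shares, so it also has fewer vehicle arrays. With clock components as covariates the direction turned, to 0.30 (adjusted p = 0.340) under rosiglitazone and 0.18 (adjusted p = 0.661) under GW501516. Averaged over days, 2 of 3 erythroid, 2 of 6 fibroblast and 1 of 4 neutrophil markers were called lower in rosiglitazone heart, with fibroblast means of 11.94 through 12.19 to 13.27 against 12.08 through 12.38 to 12.65 in vehicle, and erythroid means of 6.69 through 7.06 to 7.58 against 6.78 through 7.47 to 8.13. Their part in the heart values under rosiglitazone was not tested.

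Under WY14643 Nppb kept no single direction. The arrays were at 13.59, 13.50, 13.00, 13.01 and 12.80 on day 4, all above the vehicle mean, at 12.68, 12.56, 12.67, 12.39 and 12.63 on day 8, all below the lowest vehicle array, and at 13.43, 12.96, 13.38, 13.60 and 13.60 on day 15, with 4 of 5 above the mean. The changes were 0.42 ± 0.16, -0.46 ± 0.16 and 0.30 ± 0.16 (adjusted p = 0.243, 0.326 and 0.299 by limma). Averaged over days, Nppb was higher under WY14643 than under rosiglitazone by 0.36 ± 0.11 (adjusted p = 0.0310 by limma), the only member called in the 6 comparisons of 2 compounds at the same dose and days.

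Among all genes in heart, 3.03% differed between GW501516 and WY14643, 0.044% between GW501516 and rosiglitazone, and 6.12% between WY14643 and rosiglitazone. In skeletal muscle the shares were 0.572%, 0.066% and 0.0385%. Members at an unadjusted p under 0.05 numbered 6, 2 and 4 in heart, beside 17.7%, 5.16% and 21.5% of all genes, and 2, 0 and 0 in skeletal muscle, beside 15.2%, 6.12% and 8.56%. For Myh7 in skeletal muscle, the 95% intervals of the 3 differences in this order were -1.86 to 1.56, -1.87 to 1.56 and -1.71 to 1.71. For Myh4 they were -0.17 to 0.16, -0.063 to 0.27 and -0.055 to 0.28.

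Clock genes also differed between compound and vehicle arrays. In heart, Arntl, the core clock activator, fell by 1.71 ± 0.16 under rosiglitazone and fell by 1.33 ± 0.16 under GW501516, and had -0.079 ± 0.16 under WY14643 (adjusted p = 1.01e-12, 5.13e-09 and 0.892 by limma). Of 16 clock genes measured, 10 were called under GW501516, 0 under WY14643 and 10 under rosiglitazone in the average over days, and in skeletal muscle 5, 0 and 4. By day in heart, 0, 12 and 8 were called under GW501516 on days 4, 8 and 15, 0, 12 and 9 under rosiglitazone, and 1, 7 and 2 under WY14643. With the first 2 principal components of the clock genes as covariates, the Nppb difference between WY14643 and rosiglitazone was -0.14 (adjusted p = 0.699), of the opposite sign. The clock genes differed between the treatment groups, and the sample titles give no time of day at collection. Compound, collection time and clock therefore cannot be told apart in this fit. The part of the clock genes in the Nppb values was not tested. Without day 15 the Nppb difference was 0.20 (adjusted p = 0.682) and without day 4 0.34 (adjusted p = 0.0571). Leaving out 1 array also ended the call for WY14643 day 4 replicate 1, WY14643 day 15 replicate 4, rosiglitazone day 4 replicates 3 and 5, rosiglitazone day 8 replicates 2 and 4 or rosiglitazone day 15 replicate 3, with adjusted p of 0.0514 to 0.0621 by limma.

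Single days gave 3 called members over 18 comparisons. On days 4, 8 and 15 the share of all genes called in heart was 0.126%, 1.63% and 0.764% under GW501516, 0.253%, 0.434% and 3.37% under WY14643 and 0.22%, 4.18% and 1.09% under rosiglitazone. In skeletal muscle it was 0.0165%, 0.39% and 0.066% under GW501516, 3.34%, 0.0385% and 0.0165% under WY14643 and 0%, 0.852% and 0.242% under rosiglitazone. In the 15 comparisons with 0 members called by limma, 0 to 6 members had an unadjusted p under 0.05, or 0% to 14.3% of members beside 2.97% to 13.8% of all genes.

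The first was Ryr1, the calcium release channel of skeletal muscle, in heart on day 4 of rosiglitazone. The rosiglitazone arrays were at 7.84, 6.22, 6.74, 7.31 and 6.58, and vehicle ran from 5.83 through 6.16 to 6.71. All 5 lay above the vehicle mean and 3 above the highest vehicle array. The change was 0.72 ± 0.16 (adjusted p = 0.0297 by limma), with -0.40 ± 0.16 on day 8 and -0.13 ± 0.16 on day 15. The highest array, replicate 1, also stood apart in markers of other cells. Its adipocyte markers averaged 11.70 (the other 4 arrays 6.57 to 7.62) and its nerve and Schwann cell markers 11.03 (8.69 to 8.81). Its atrial markers averaged 11.87 (7.99 to 9.11), its fibroblast markers 13.27 (12.08 to 12.38) and its fast troponin T, Tnnt3, was at 9.71 (6.26 to 6.61). On replicate 4 the hepatocyte markers averaged 12.10, above the vehicle range of that day (6.28 to 11.63). The part of these markers in the Ryr1 value was not tested. Without replicate 1 the change was 0.49 (adjusted p = 0.547) by limma. The call was also lost on leaving out rosiglitazone replicate 4, at 0.63 (adjusted p = 0.0556), or vehicle replicate 2, 5, 6, 8 or 10, with adjusted p of 0.0510 to 0.0570. With the replicate number as a block, which also leaves fewer vehicle arrays, it was 0.67 (adjusted p = 0.138 by limma). With the mean of its probe sets it was 0.39 (adjusted p = 0.110).

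The second was Myh6, the main ventricular heavy chain, in heart on day 15 of WY14643. The WY14643 arrays were at 14.54, 14.59, 14.59, 14.47 and 14.58, and vehicle ran from 14.51 through 14.64 to 14.71. All 5 lay below the vehicle mean and 1 below the lowest vehicle array. The change was -0.076 ± 0.021 (adjusted p = 0.0313 by limma), a small one at a level close to the array maximum. On that day 2 of 4 neutrophil markers were called higher in WY14643 heart, with a mean level of 7.34 through 7.38 to 9.25 against 6.69 through 7.01 to 7.45 in vehicle. Of 6 fibroblast markers 1 was called lower, with means of 11.98 through 12.04 to 12.33 against 12.08 through 12.34 to 12.63. Hepatocyte markers (6 of 6 measured, 0 called) averaged 11.15 through 11.63 to 12.04 on these arrays and 6.75 through 10.75 to 12.43 on the vehicle arrays of that day, and the part of these cells was not tested. Without WY14643 replicate 4 the change was -0.055 (adjusted p = 0.291), and without replicate 1 it was -0.072 (adjusted p = 0.108). Leaving out vehicle replicate 1, 2, 5, 7 or 9 also ended the call, with adjusted p of 0.0534 to 0.0755.

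The third was Casq1, the calcium store protein of fast fibres, in skeletal muscle on day 4 of WY14643. The WY14643 arrays were at 12.47, 11.59, 12.37, 12.49 and 12.33, and vehicle ran from 12.29 through 12.59 to 12.79. All 5 lay below the vehicle mean, but only replicate 2 lay below the lowest vehicle array. The change was -0.32 ± 0.078 (adjusted p = 0.0133 by limma), with -0.0017 ± 0.078 on day 8 and -0.068 ± 0.078 on day 15. Without replicate 2 it was -0.16 (adjusted p = 0.265). On that day 5 of 6 hepatocyte markers were called higher in WY14643 muscle, with a mean level of 5.84 through 8.20 to 11.89 against 3.63 through 4.66 to 6.34 in vehicle. Adipocyte markers (4 of 6 measured, 0 called) averaged 9.21 through 10.82 to 11.13 against 6.04 through 8.18 to 11.27. Of the other lists, 1 of 3 erythroid, 1 of 6 smooth muscle and 1 of 6 satellite cell markers were called lower, and 1 clock gene was called higher and 5 lower of 16. On replicate 2 itself the hepatocyte markers averaged 6.28 and the adipocyte markers 10.82, each inside the vehicle range of that day. The part of these markers in the Casq1 value was not tested.

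**Figure D4:**
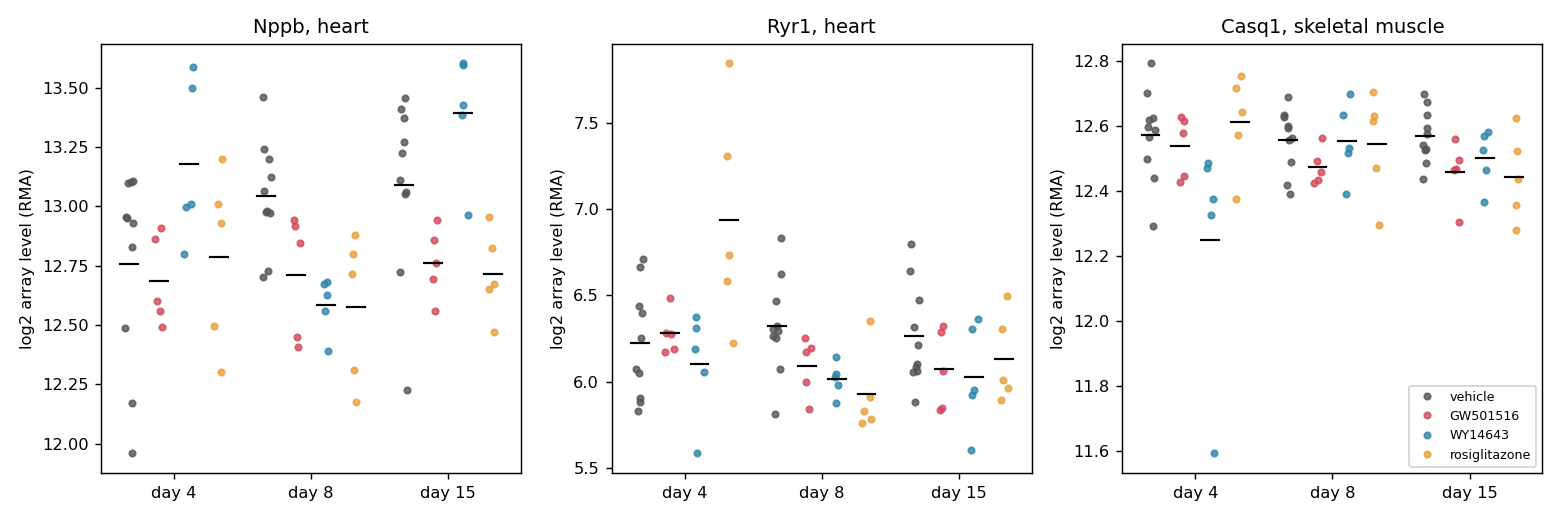
Log2 level per array of Nppb and Ryr1 in heart and Casq1 in skeletal muscle on days 4, 8 and 15, coloured by treatment, with 10 vehicle and 5 compound arrays per day; black bars are group means. Ryr1 reaches 7.84 under rosiglitazone on day 4, 1 WY14643 array of Casq1 lies at 11.59 on day 4, and the 5 WY14643 arrays of Nppb all lie below vehicle on day 8.

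No member was called for a change of effect between days or between tissues. For the effect on day 15 minus that on day 4, 0 of 42 passed by limma under each compound in both tissues, where 0.0165%, 0.275% and 0% of all genes passed in heart and 0%, 0% and 0.0055% in skeletal muscle. At an unadjusted p under 0.05 there were 1, 2 and 7 members in heart, where 2.38%, 4.76% and 16.7% of members compares with 4.96%, 14.3% and 8.95% of all genes. In skeletal muscle there were 1, 4 and 6, or 2.38%, 9.52% and 14.3% of members beside 3.05%, 10.1% and 5.94% of all genes. Members vary together, so these counts are not of independent genes. The rosiglitazone contrast in heart includes day 4 replicate 1, the array that stood apart in markers of other cells, and its part was not tested. In the within-mouse difference of heart minus skeletal muscle, averaged over days, 0 of 42 passed, where 0.346%, 0.0055% and 0.5% of all genes did, and 0, 1 and 1 members had an unadjusted p under 0.05, beside 8.16%, 6.84% and 12.4% of all genes. With so few genes called in all, the counts of 0 at an adjusted p lie near the background.

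Genes that build or serve the sarcomere outside the 42 gave a few calls, all in heart. Of 49 sarcomere and Z-disc genes measured, 1 rose and 1 fell under GW501516 (median change -0.0079), 0 passed under WY14643 (1 at an unadjusted p under 0.05; median -0.0021) and 2 rose and 3 fell under rosiglitazone (median -0.023). These are 4.08%, 0% and 10.2% of the list, beside 4.17%, 1.44% and 7.51% of all genes. Tcap, the titin cap, rose by 0.099 ± 0.028 under GW501516 (adjusted p = 0.0251 by limma; 12 of 15 arrays above the same-day vehicle mean). Ankrd23, a titin-binding stretch-response protein, fell by 0.22 ± 0.067 under GW501516 and fell by 0.31 ± 0.067 under rosiglitazone (adjusted p = 0.0407 and 8.49e-04; 13 and 14 of 15 below). With the clock components as covariates, Tcap had -0.014 and Ankrd23 0.035 and 0.030, of opposite sign. Under rosiglitazone Klhl40, a stabiliser of thin filament proteins, fell by 0.23 ± 0.063, the ubiquitin ligase Trim63 fell by 0.21 ± 0.056, and the myosin kinase Mylk4 rose by 0.19 ± 0.054 (adjusted p = 0.0126, 0.0110 and 0.0146 by limma). In skeletal muscle 0 of 49 passed under each compound, with 4 at an unadjusted p under 0.05 in each.

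Calcium-handling genes outside the 42 gave 4 calls in heart and 2 in skeletal muscle. Of 26 measured in heart, 1 rose and 2 fell under GW501516 (median -0.013), 0 passed under WY14643 (3 at an unadjusted p under 0.05; median -0.039) and 1 fell under rosiglitazone (median -0.049). These are 11.5%, 0% and 3.85% of the list, beside 4.17%, 1.44% and 7.51% of all genes. The kinase gene Camk2g fell by 0.14 ± 0.039 under GW501516 and fell by 0.21 ± 0.039 under rosiglitazone (adjusted p = 0.0231 and 1.03e-04 by limma). Stac3, which links excitation to calcium release, fell by 0.24 ± 0.067 under GW501516 (adjusted p = 0.0214). Asph rose by 0.076 ± 0.022 (adjusted p = 0.0315), but had -0.046 with the mean of its probe sets and -0.088 with the probe set highest in heart. In skeletal muscle 1 of 26 rose under GW501516, 0 passed under WY14643 (5 at an unadjusted p under 0.05) and 1 fell under rosiglitazone, or 3.85%, 0% and 3.85% of the list beside 0.857%, 0.104% and 1.65% of all genes. These were Ppp1r3a, a glycogen-targeting phosphatase subunit, which rose by 0.37 ± 0.089 (adjusted p = 0.0162 by limma; 14 of 15 above), and the sodium-calcium exchanger Slc8a1, which fell by 0.71 ± 0.15 (adjusted p = 0.00273; 13 of 15 below). Both probe sets lay low on the arrays, with vehicle medians of 2.56 and 3.66, and leaving out GW501516 day 4 replicate 5 gave Ppp1r3a 0.32 (adjusted p = 0.0641), while the probe set highest in skeletal muscle gave Slc8a1 -0.22 (adjusted p = 0.182).

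The regulators of fibre type that passed the test all fell. Of 32 measured in heart, 3 fell under GW501516 (median 0.00077), 4 under WY14643 (median -0.019) and 5 under rosiglitazone (median -0.029), and none rose. These are 9.38%, 12.5% and 15.6% of the list, beside 4.17%, 1.44% and 7.51% of all genes. Hdac9, a repressor of MEF2 targets, fell by 0.30 ± 0.055 under GW501516 and fell by 0.37 ± 0.055 under rosiglitazone (adjusted p = 1.08e-04 and 1.46e-06 by limma; 14 and 15 of 15 arrays below the same-day vehicle mean). Rcan1, a target and inhibitor of calcineurin, fell by 0.28 ± 0.062 and fell by 0.43 ± 0.062 (adjusted p = 0.00196 and 5.59e-07). With the clock components as covariates Rcan1 had 0.052 (adjusted p = 0.868) and -0.012 (adjusted p = 0.968), and Hdac9 -0.28 (adjusted p = 0.0790) and -0.36 (adjusted p = 0.0710) by limma. Prox1, a transcription factor of slow and cardiac muscle, fell by 0.13 ± 0.038 under GW501516, fell by 0.14 ± 0.038 under WY14643 and fell by 0.20 ± 0.038 under rosiglitazone (adjusted p = 0.0317, 0.0437 and 1.92e-04). With the replicate number as a block, and so fewer vehicle arrays, Prox1 was no longer called by limma under GW501516 (adjusted p = 0.178) or WY14643 (adjusted p = 0.163).

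Under WY14643 in heart, Ppargc1b, a coactivator of mitochondrial genes, fell by 0.26 ± 0.063, and the MEF2 genes Mef2d and Mef2c fell by 0.16 ± 0.044 and 0.13 ± 0.028 (adjusted p = 0.0166, 0.0364 and 0.00937 by limma). Without WY14643 day 4 replicate 2, Ppargc1b had -0.19 (adjusted p = 0.0576). In skeletal muscle 0 of 32 regulators passed under GW501516 (6 at an unadjusted p under 0.05) and WY14643 (9 at an unadjusted p under 0.05), and 3 fell under rosiglitazone, or 0%, 0% and 9.38% of the list beside 0.857%, 0.104% and 1.65% of all genes. Hdac9 fell by 0.74 ± 0.16, Six4, a homeobox factor that drives fast genes, fell by 0.37 ± 0.097, and the calcineurin-responsive factor Nfatc3 fell by 0.17 ± 0.040 (adjusted p = 0.00455, 0.0272 and 0.00800 by limma; 13, 13 and 14 of 15 below). With the clock components as covariates these had -0.42 (adjusted p = 0.266), -0.30 (adjusted p = 0.244) and -0.19 (adjusted p = 0.0538).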

How the data were processed

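The values are log2 signals of Affymetrix mouse expression arrays deposited by the authors, made with RMA in Partek per the submitters' processing notes (versions not given in the sources used here). Of 45101 probe sets, 34945 had 1 gene in the platform annotation. The one with the highest mean over all 300 arrays, other tissues included, stood for each of 18193 genes. Each tissue's 75 arrays were fitted with limma 3.58.1 in R 4.3.3 (12 groups, 63 residual degrees of freedom, trended variance), with compound minus same-day vehicle as contrast and Benjamini-Hochberg adjustment over all genes; calls have an adjusted p under 0.05. The fit was tested on simulated data. Members and gene lists were chosen with earlier results of these data known. Values are given for called members, both genes of each isoform pair, Nppa, Nppb, Myh7 and Acta1 in heart, and up to 4 called genes of the largest change per list and comparison. The number of arrays limits precision. Alternatives changed the probe set, low-signal filter, scaling, variance model, array weights, vehicle pooling, replicate block, days, clock covariates and single arrays.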

Additional observations from a re-analysis of the deposited data

Results flagged for a closer look

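For Nppb, Ryr1 and Myh6 in heart and Casq1, Myh7 and Myh4 in skeletal muscle, 1 array stood apart in 7 of the 72 groups of 5 or 10 arrays (a treatment on a day), by Dixon's criterion, which chance alone meets in about 1 group in 20. In heart, Ryr1 was at 6.35 on rosiglitazone day 8 replicate 3, with the nearest array of its group at 5.91. Myh6 was at 14.73 on GW501516 day 4 replicate 3 (nearest 14.68).

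In skeletal muscle, Casq1 was at 11.59 on WY14643 day 4 replicate 2 (nearest 12.33), the array on which its call depends. Myh7 was at 4.37 on WY14643 day 15 replicate 2 (nearest 9.37), a value inside the range of the vehicle arrays over all days. Myh4 was at 12.45 on GW501516 day 15 replicate 1, with the nearest at 12.79, and at 13.00 on WY14643 day 8 replicate 1, with the nearest at 12.78.

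The widest of these gaps in Myh4 was on rosiglitazone day 15 replicate 1, at 10.95 (nearest 12.68). On the same array Myh1 was above the others of its group, at 13.39 (the other 4 arrays 12.20 to 13.28) and Myh2 was within their range, at 13.18 (8.94 to 13.26). Actn3 was at 12.88 (13.07 to 13.34) and Pvalb at 13.40 (13.42 to 13.60).

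Over the 42 genes, 2 tissues, 3 compounds and 3 pairs of days, in 4 of 756 cases all 5 arrays of one day lay on one side of the same-day vehicle mean and all 5 of the other day on the opposite side. These differences were not tested. Of the 4, 3 were under WY14643 on days 4 and 8. The mean of Nppb in heart was 13.18 on day 4, above vehicle, and 12.59 on day 8, below it. In skeletal muscle the mean of Actn3 was 13.11 on day 4, below vehicle, and 13.25 on day 8, above it. The mitochondrial creatine kinase Ckmt2 had a mean of 12.55 on day 4, above vehicle, and 12.32 on day 8, below it. Under GW501516 in skeletal muscle the mean of Pvalb was 13.45 on day 4, below vehicle, and 13.54 on day 15, above it.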

How the results depend on the processing

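Over 13 alternatives, 5 of the 252 day-averaged pairs of a member and a comparison were called in any. In heart under GW501516 the count of 0 became 1 with the mean of all probe sets (Tpm1, -0.12, adjusted p = 0.0254) and without day 4 (Nppb). Under WY14643 it became 1 with array weights (Ryr2, -0.047, adjusted p = 0.0418). Under rosiglitazone it became 1, each time Nppb, with the 40th percentile filter (-0.27, adjusted p = 0.0401), array weights (-0.33, adjusted p = 0.00648), the replicate block (-0.34, adjusted p = 0.0196) and without day 4. In skeletal muscle under rosiglitazone it became 1 with clock covariates (Nppa, -0.42, adjusted p = 0.0413). Leaving out single arrays gave 0 to 1 under GW501516 in heart (Nppb, without vehicle day 15 replicate 5) and 0 to 1 under rosiglitazone in heart (Nppb, without rosiglitazone day 4 replicates 1 and 2, rosiglitazone day 8 replicates 3 and 5, rosiglitazone day 15 replicate 2, vehicle day 4 replicates 6, 7 and 8, vehicle day 8 replicates 2 and 6 or vehicle day 15 replicates 5 and 7). Clock covariates reversed Nppb under rosiglitazone (0.30), GW501516 (0.18) and in WY14643 minus rosiglitazone (-0.14), Tcap (-0.014), Ankrd23 under GW501516 (0.035) and rosiglitazone (0.030) and Rcan1 under GW501516 (0.052). Asph was reversed by the mean of its probe sets (-0.046) and by its probe set highest in heart (-0.088). The cause was not tested. Of 30 called values of single genes, 3 stayed called with clock covariates, 19 with the replicate block, 18 after median centring, 22 with the mean of probe sets and 27 to 29 under array weights, quantile normalization, no trend or the tissue's highest probe set, as did 26 of 26 with the filter and 24 of 26 with pooled vehicle. Without a day, 6 of 27 stayed called for day 15, 9 for day 8 and 20 for day 4. Fewer arrays enter these fits, and fewer vehicle arrays enter the replicate block. Myh6 on day 15 lost its call with the mean of its probe sets (0.183), median centring (0.139), quantile normalization (0.0738), no trend (0.0740) and clock covariates (0.0662, adjusted p), and Casq1 with array weights (0.0731) and clock covariates (0.288). Single arrays ended calls under GW501516 in heart for Tcap (without GW501516 day 4 replicate 3), Stac3 (GW501516 day 4 replicate 2, GW501516 day 8 replicate 1 or GW501516 day 15 replicate 1), Camk2g (GW501516 day 8 replicates 2 and 4), Asph (GW501516 day 4 replicates 1 and 2 or GW501516 day 8 replicate 1) and Prox1 (GW501516 day 8 replicate 4 or GW501516 day 15 replicates 1, 2 and 3), and for Ankrd23 any of 19 arrays did so. Under WY14643 they did so for Mef2d (WY14643 day 4 replicate 5, WY14643 day 8 replicates 2 and 5, WY14643 day 15 replicates 2 and 4, vehicle day 4 replicate 5 or vehicle day 15 replicates 2 and 7) and, with any of 22 arrays, Prox1. Under rosiglitazone they did so for Mef2c in heart (rosiglitazone day 4 replicate 1, rosiglitazone day 8 replicates 3, 4 and 5, rosiglitazone day 15 replicates 3 and 5, vehicle day 8 replicate 7 or vehicle day 15 replicates 2, 6 and 7) and Six4 in skeletal muscle (rosiglitazone day 4 replicate 3, rosiglitazone day 8 replicates 2, 4 and 5 or rosiglitazone day 15 replicates 2, 3 and 4). Counts over all genes moved by more than 1.5 times in heart under GW501516 from 759 to 1267 with array weights, 448 with the block, 97 with no day 8, 259 with no day 15, 220 with clock covariates, under WY14643 from 262 to 680 with array weights, 172 with pooled vehicle, 160 with the block, 535 with no day 4, 72 with no day 8, 50 with no day 15, 157 with clock covariates and under rosiglitazone from 1367 to 2070 with array weights, 891 with the block, 210 with no day 8, 812 with no day 15, 219 with clock covariates. In skeletal muscle they moved under GW501516 from 156 to 458 with array weights, 20 with no day 8, 80 with no day 15, 68 with clock covariates, under WY14643 from 19 to 34 with array weights, 52 with the block, 2 with no day 8, 34 with no day 15 and under rosiglitazone from 301 to 643 with array weights, 542 with the block, 584 with no day 4, 9 with no day 8, 76 with no day 15, 172 with clock covariates. Arrays of different treatments with the same replicate number on a day came from different mice. Their deviations had a median r of 0.0411 in heart (25 of 90 pairs over 0.1) and 0.0626 in skeletal muscle (41 of 90). Pairs with different numbers had 0.00203 and -0.0072. Whether the number stands for anything the arrays share was not tested. Spread between mice limits what can be seen for slow genes in skeletal muscle and atrial genes in heart.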
